A study of Mus musculus with 6 samples.

Results

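Interferon-stimulated genes are the genes that cells switch on when interferon reaches them. A list of 47 such genes, chosen by name with earlier results of these arrays known, was followed here through the conversion of mouse fibroblasts with Tet3, the dioxygenase that oxidises 5-methylcytosine. The list holds antiviral effectors, nucleic acid sensors, the regulators of the response and 3 interferon receptor chains. Each gene was read from the brightest of the probes whose accession belongs to it, and 45 of the 47 genes had such a probe, among 20652 genes with a probe in all. Mx1 and Mx2 had none by this route and are not analysed here. All 45 were well above background on all 6 arrays, so each of their differences was measured on both sides.

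The study measured RNA on 6 single-colour arrays, 1 for each group. The groups were primary neurons of E13.5 embryos, fibroblasts at 1, 3, 5 and 7 dpi (as the labels write it) of induction by Tet3, and untreated mouse embryonic fibroblasts (MEF), the mixed cells grown out of E13.5 ICR embryos. The induced fibroblasts had received adenoviral supernatants with polybrene on each of 2 days, and part of their medium was exchanged for neuronal medium with 20 µM forskolin on days 3 and 5 after the second infection. No group received a virus without Tet3, so the infection, Tet3 and, on the later arrays, the medium cannot be told apart. The sources used here do not say whether the cells of 3 and 5 dpi were taken before or after the exchange. With 1 array in a group no test between groups was possible, and every value below describes single cultures whose number limits the precision.

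Type I interferon binds the receptor chains Ifnar1 and Ifnar2, whose kinases Jak1 and Tyk2 pass the signal on. Stat2 and Irf9 then take part in the complex that binds the interferon-stimulated response element (ISRE), while interferon gamma acts through Ifngr1 and the gamma-activated site (GAS). Fibroblasts answer interferon with a broad set of these genes, and neurons answer it too.

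Levels are given as log2 signal relative to the 75th percentile of all probes on the array, and a difference is the log2 level of one array minus that of another. A gene was called higher or lower from a 2-fold difference, which is 1 on the log2 scale. The scanner software's error model gave a median error of 0.20 for a difference of these genes, and 0.29 at most, which covers the array and not the culture. MEF and 1 dpi shared a scan, and the second scan held 3, 5 and 7 dpi and neurons. Scan and group cannot be told apart when an array of the second scan is set against one of the first. The brightest Tet3 probe lay above MEF by 1.35, 1.96 and 2.79 on the log2 scale at 1, 3 and 5 dpi but by 0.30 on the array labelled 7 dpi, which is named by its label for that reason. Its other 2 probes differed from this one: a probe at -2.00, -1.14 and 0.26 at 1, 3 and 5 dpi was not well above background at 7 dpi, in neurons or in MEF, and the other differed from MEF by -0.45, 0.31, 0.35 and 0.41 at 1, 3, 5 and 7 dpi. Neuron markers went with the labels, with 8 of 8 higher than MEF in neurons and on the array labelled 7 dpi, and 8 of 9 fibroblast markers were lower in neurons than in MEF. Macrophage markers did not stay level: 14 of 14 were lower than MEF on each Tet3 array and in neurons. Their summed signal, in units of the 75th percentile, was 4.69 in neurons, and 354 in MEF, 67.4 at 1 dpi, 24.4 at 3 dpi, 4.73 at 5 dpi and 3.46 at 7 dpi, where Mrc1 alone was not well above background. The marker signal was highest in MEF, and in bulk RNA fewer cells of a type and less RNA per cell cannot be told apart. Markers of lymphocytes and NK cells were well above background on all 6 arrays for 7 of 10, with Cd4 and Nkg7 the brightest, and those of dendritic cells for 4 of 6, with Siglech the brightest, while Cd3g, Ms4a1 and Xcr1 were on none. The summed signal of the lymphocyte list was 14.6 in neurons and 18.1 to 19.7 on the other arrays, and that of the dendritic list 92.1 in neurons and 38.9 to 58.4 on the others. The part of these cells in the results was not tested.

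Between 16 and 22 of the 45 interferon-stimulated genes were higher than in MEF on each Tet3 array, and 26 were lower than in MEF in primary neurons. At 1 dpi, 16 of 45 were higher, against 5.38% of all genes, and 1 was lower, against 5.97%. At 3 dpi 16 were higher and 5 lower, with backgrounds of 16.3% and 9.83%. At 5 dpi 22 were higher, against 17.9% of all genes, and 1 was lower, against 8.26%. On the array labelled 7 dpi 17 were higher and 0 lower, with backgrounds of 17.0% and 6.84%. The median difference over the 45 genes was 0.80, 0.74, 1.00 and 0.82 at 1, 3, 5 and 7 dpi over MEF, where all genes had medians of 0.07, 0.20, 0.20 and 0.16. In neurons 3 were higher than in MEF and 26 lower, against 30.2% and 16.1% of all genes, and the median was -1.17, against 0.26 for all genes. The 1 dpi comparison lies within a scan. Macrophage markers were lower than in MEF in each of these comparisons, as given above, and their part in the counts was not tested.

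**Figure D1:**
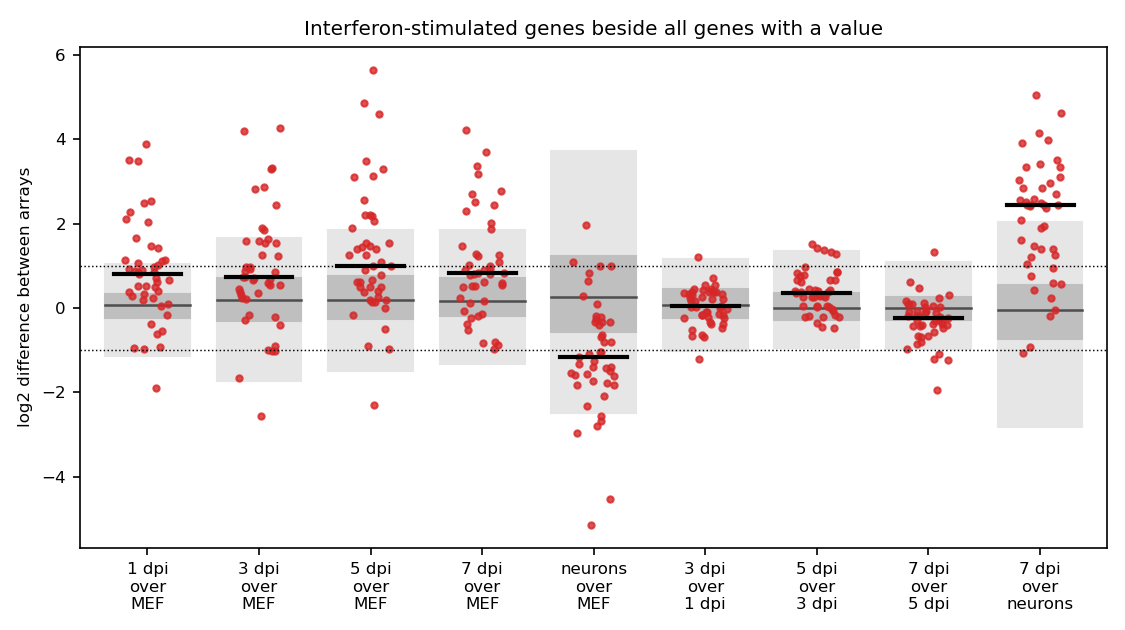
Log2 difference of each of the 45 genes (red points) in 9 comparisons, with their median as a black bar. The light and dark grey boxes span the central 90% and 50% of all genes with a value, the grey line is their median, and dotted lines mark 2-fold. The gene set's median lies above that of all genes for the 4 Tet3 arrays over MEF and far above it for 7 dpi over neurons, and it lies below for neurons over MEF.

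The scaling sets part of these counts. Centring each array on its median instead took a further 0.07, 0.30, 0.40 and 0.44 off every difference at 1, 3, 5 and 7 dpi over MEF. It left 14 higher and 3 lower at 1 dpi (82.4% of the called genes higher, where the scaling used gave 94.1%). At 5 dpi it left 17 higher and 3 lower (85.0% in place of 95.7%), and at 7 dpi 12 higher and 4 lower in place of 17 and 0. At 3 dpi median centring left 14 higher and 6 lower (70.0% in place of 76.2%). Quantile normalization gave 16 higher and 2 lower there (88.9%). Over all genes the share of calls that were higher was 47.4% at 1 dpi as used. The share was 41.2% with normexp background correction, 43.6% after quantile normalization and 42.3% after median centring. At 3 dpi it was 62.3% as used, 45.8% with normexp background correction, 43.0% after quantile normalization and 40.5% after median centring. At 5 dpi these shares were 68.5%, 58.3%, 46.8% and 40.0%, at 7 dpi 71.3%, 60.2%, 49.1% and 42.0%, and in neurons 65.3%, 58.4%, 47.3% and 30.1%.

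A core of 13 genes was higher than MEF on all 4 Tet3 arrays, against 2.01% of all genes: Oasl1, Oasl2, Ifit1, Ifit3, Isg15, Usp18, Apol9b, Ifi44, Ifi35, Samd9l, Xaf1, Irf7 and Gbp3. Without the array labelled 7 dpi the core held 14, with Irgm1 added, against 3.17%. Median centring took Ifi35 and Samd9l below 2-fold at 7 dpi, and normexp background correction took Ifi35 below it there. The dimmer probe of Xaf1 lay above MEF by only 0.65 and 0.60 at 1 and 3 dpi, under 2-fold. On at least 1 Tet3 array 23 genes were higher, against 24.2% of all genes. With the scaling used, a second group of 17 stayed within 2-fold of MEF on all 4 arrays, against 62.6%. It included Oas1a, Oas3, Ifit2, Trim25, Irf9, Stat2 and all 4 genes of the PARP group. At any size of difference, and with the scaling used, 32 genes lay above MEF on all 4 arrays, against 35.1%, and 5 lay below, against 21.8%: Ifnar1, Ifnar2, Ifngr1, Irf1 (by the brighter of its 2 probes, which disagree) and Parp14. After median centring 2 genes counted above MEF here lay below it, Sp100 at 5 and 7 dpi and Dtx3l at 3 and 7 dpi.

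**Figure D2:**
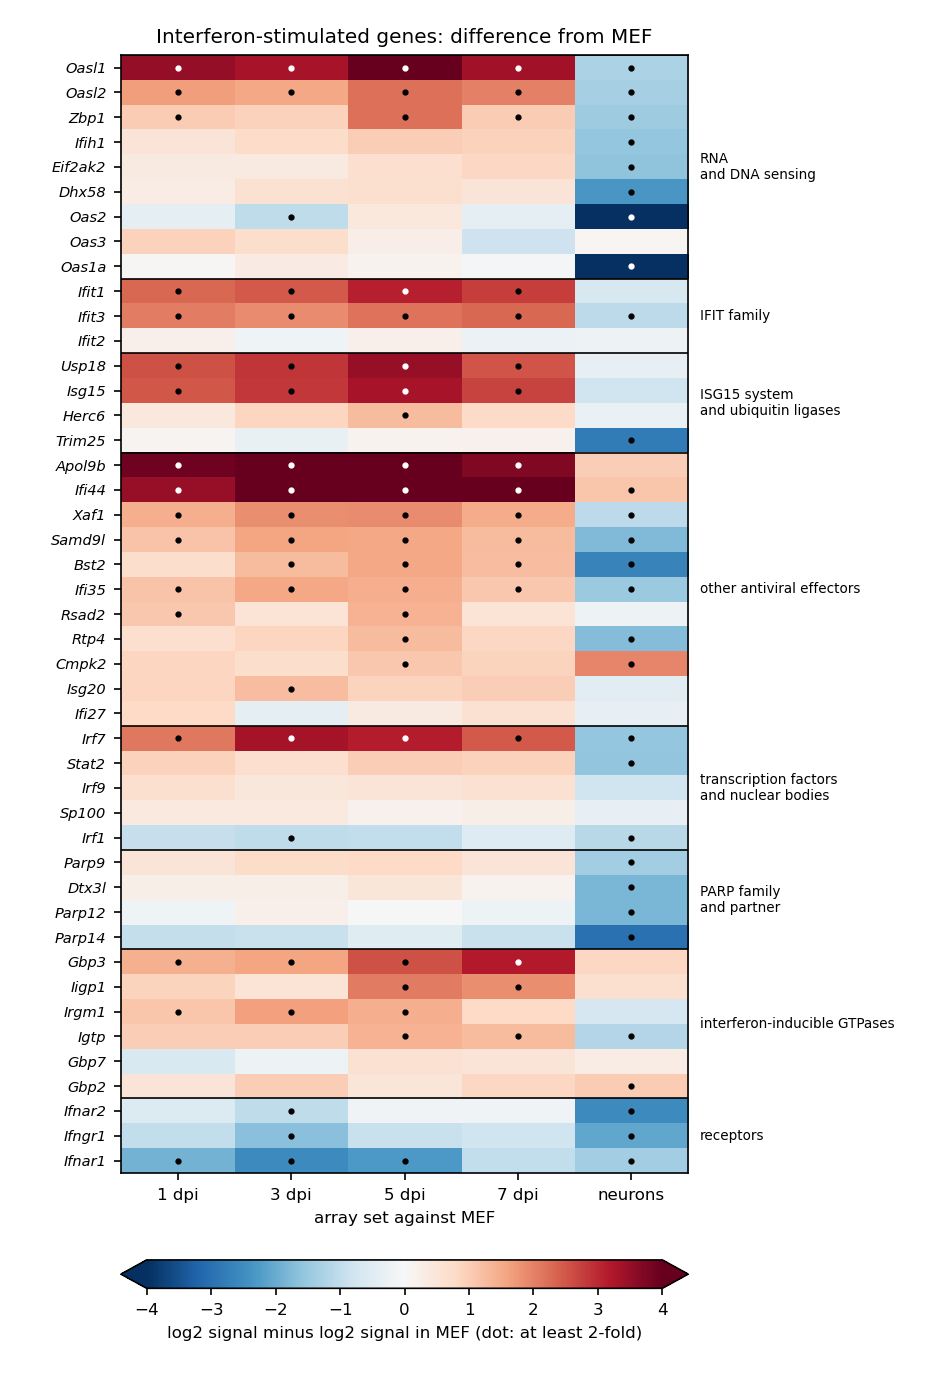
Difference of each of the 45 genes from MEF on the 4 Tet3 arrays and in neurons, on a log2 colour scale that saturates at 4 in either direction, ordered by role and, within a role, by the 5 dpi value. Dots mark differences of at least 2-fold. The rows of Oasl1, Ifit1, Isg15, Usp18, Apol9b, Ifi44 and Irf7 are red on all 4 Tet3 arrays, the 3 receptors are blue, and the neuron column is mostly blue.

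Many of these genes carry the letters of an interferon response element at their start. RefSeq windows of 300 bases, from 250 before to 50 after the annotated start on GRCm38.p6, were found for 36 of the 47 genes. The ISRE letters (GAAA, any 2 bases, then GAAA), read on both strands, were in the windows of 16 of the 36 genes (44.4%), against 3.99% of 27025 genes with a window. The GAS letters TTCNNNGAA, also on both strands, were in those of 11 (30.6%), against 9.55%. Both were found in Bst2, where they overlap, and apart from each other in Igtp, Oas1a, Gbp7 and Eif2ak2. The ISRE letters were in 9 of 18 genes that were higher at 5 dpi and in 7 of the other 18, and the GAS letters in 3 and 8 of them. The 250 bases before the start are printed for 6 genes that differ in letters and in response, in the direction of the gene, with ISRE letters in capitals, and for Irf1 the GAS letters. Isg15, Ifit1 and Apol9b carry the letters and were high, Oas1a carries them and stayed level, Ifi44 lacks them in this spelling and was among the highest, and Irf1 was lower than in MEF by its brighter probe. They lie at chr4:156200819-156201068 (minus strand), chr19:34640639-34640888 (plus), chr15:77728822-77729071 (plus, the first of 2 windows), chr5:120907526-120907775 (minus), chr3:151749911-151750160 (minus) and chr11:53769764-53770013 (plus, the first of 2 windows).
Isg15: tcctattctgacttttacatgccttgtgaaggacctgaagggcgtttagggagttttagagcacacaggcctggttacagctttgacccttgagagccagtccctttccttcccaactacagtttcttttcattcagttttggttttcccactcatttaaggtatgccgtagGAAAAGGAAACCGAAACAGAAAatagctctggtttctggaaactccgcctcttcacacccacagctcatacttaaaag
Ifit1: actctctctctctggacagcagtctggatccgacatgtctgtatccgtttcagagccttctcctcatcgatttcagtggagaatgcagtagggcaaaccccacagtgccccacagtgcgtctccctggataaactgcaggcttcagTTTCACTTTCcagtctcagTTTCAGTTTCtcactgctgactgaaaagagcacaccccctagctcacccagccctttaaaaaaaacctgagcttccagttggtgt
Apol9b: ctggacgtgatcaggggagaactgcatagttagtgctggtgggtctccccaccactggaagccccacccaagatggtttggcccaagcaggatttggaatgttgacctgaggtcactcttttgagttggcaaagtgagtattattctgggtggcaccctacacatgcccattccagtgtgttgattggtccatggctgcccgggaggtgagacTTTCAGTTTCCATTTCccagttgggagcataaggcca
Oas1a: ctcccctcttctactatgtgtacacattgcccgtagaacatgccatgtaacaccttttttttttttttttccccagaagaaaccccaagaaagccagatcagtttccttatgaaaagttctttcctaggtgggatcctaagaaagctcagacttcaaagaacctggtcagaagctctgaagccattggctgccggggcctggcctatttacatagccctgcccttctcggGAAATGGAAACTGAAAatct
Ifi44: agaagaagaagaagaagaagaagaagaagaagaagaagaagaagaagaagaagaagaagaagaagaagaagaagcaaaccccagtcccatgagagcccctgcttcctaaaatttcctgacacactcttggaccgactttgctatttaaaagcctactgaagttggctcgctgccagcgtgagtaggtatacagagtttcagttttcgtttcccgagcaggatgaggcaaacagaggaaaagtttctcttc
Irf1: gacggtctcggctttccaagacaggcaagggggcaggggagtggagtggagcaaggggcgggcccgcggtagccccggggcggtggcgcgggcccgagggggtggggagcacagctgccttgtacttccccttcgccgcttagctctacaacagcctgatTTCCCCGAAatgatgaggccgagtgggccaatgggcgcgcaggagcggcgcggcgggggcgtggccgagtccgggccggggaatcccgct
Isg15 has 3 overlapping matches, whose first bases lie at -78, -72 and -66 from the start, and the pair in Oas1a overlaps in the same way, at -20 and -14. The matches of Ifit1 are separate and on the opposite strand. A match describes letters and not a bound site, and the absence of one says only that this spelling is not in the window.

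**Figure D3:**
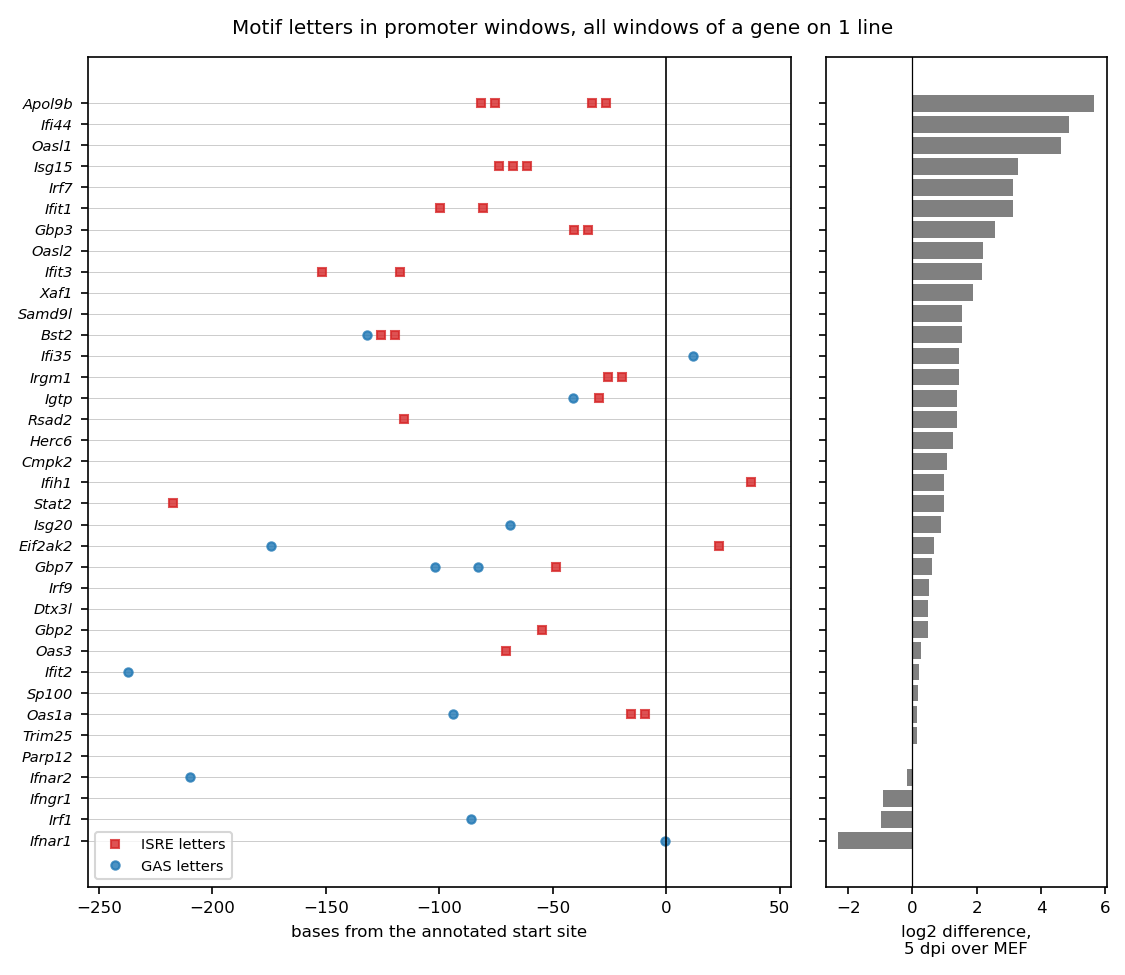
Left, position of ISRE letters (red squares) and GAS letters (blue circles) relative to the annotated start in the promoter windows of 36 genes, with all windows of a gene on 1 line. Right, the log2 difference of 5 dpi over MEF for the same genes, which set the order. Red squares occur from the top (Apol9b, 5.65) down to Oas1a (0.15), and the 3 receptors and Irf1 at the bottom show GAS letters or none.

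Among the genes that sense foreign RNA and DNA, the OAS-like pair was high and the classical oligoadenylate synthetases were not. Of the 9 genes in this group, 3 were higher than MEF at 1 dpi, 2 at 3 dpi, 3 at 5 dpi and 3 at 7 dpi. Of all genes, 5.38%, 16.3%, 17.9% and 17.0% were higher at these times. Zbp1 was at the threshold at 1 and 7 dpi, with differences of 1.01. Normexp background correction, quantile normalization and median centring each left 2 genes at both of these times, without Zbp1. Quantile normalization also called Ifih1 higher at 5 dpi. Oasl1, which in mouse cells binds Irf7 mRNA and holds back its translation, stood at -4.06 in neurons, and at -2.79 in MEF, 0.72 at 1 dpi, 0.50 at 3 dpi, 1.82 at 5 dpi and 0.58 at 7 dpi. It was 11.4-fold above MEF at 1 dpi and 24.5-fold above it at 5 dpi, and its neuron level was the lowest of the 6. Oasl2, a synthetase with ubiquitin-like domains, stood at -0.20 in neurons, and at 1.13 in MEF, 2.80 at 1 dpi, 2.67 at 3 dpi, 3.34 at 5 dpi and 3.14 at 7 dpi. Zbp1, the sensor of Z-form nucleic acids, stood at -2.88 in neurons, and at -1.46 in MEF, -0.44 at 1 dpi, -0.53 at 3 dpi, 0.75 at 5 dpi and -0.45 at 7 dpi, with its highest value at 5 dpi, 4.62-fold above MEF. All 3 were lower in neurons than on any other array.

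Oas1a, Oas2 and Oas3 make the oligoadenylates that activate RNase L. Oas1a stood at -2.97 in neurons, and at 2.18 in MEF, 2.22 at 1 dpi, 2.49 at 3 dpi, 2.33 at 5 dpi and 2.10 at 7 dpi. Its 5 culture arrays differed little, while the neuron array lay 35.3-fold below MEF. Oas2 was at -3.72 in neurons, and at 0.81 in MEF, 0.44 at 1 dpi, -0.20 at 3 dpi, 1.23 at 5 dpi and 0.43 at 7 dpi. With the scaling used it was the only gene of this group called lower than MEF on a Tet3 array, at 3 dpi and at the threshold (-1.01). Oas3 was dim throughout and, with the scaling used, within 2-fold of MEF on every array. It differed by 0.92, 0.70, 0.26 and -0.82 at 1, 3, 5 and 7 dpi and by 0.09 in neurons. After median centring Oas3 was called lower than MEF at 7 dpi.

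The kinase Eif2ak2 (PKR) and the helicases Ifih1 (MDA5) and Dhx58 (LGP2), which detect double-stranded RNA, lay above MEF on all 4 arrays without reaching 2-fold. Eif2ak2 differed by 0.35, 0.37, 0.66 and 0.84 at 1, 3, 5 and 7 dpi. Ifih1 differed by 0.53, 0.74, 1.00 and 0.92, just under the threshold at 5 dpi, and Dhx58 by 0.29, 0.60, 0.63 and 0.51. In neurons all 3 were lower than in MEF, with differences of -1.61, -1.54 and -2.33.

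The IFIT family split. Ifit1, which binds RNA whose cap lacks methylation, and its partner Ifit3 were high from 1 dpi on, and Ifit2 was not. Ifit1 stood at -0.91 in neurons, and at -0.28 in MEF, 2.01 at 1 dpi, 2.17 at 3 dpi, 2.84 at 5 dpi and 2.50 at 7 dpi. Ifit3 stood at -0.25 in neurons, and at 0.79 in MEF, 2.84 at 1 dpi, 2.68 at 3 dpi, 2.97 at 5 dpi and 3.09 at 7 dpi, and unlike most of the genes it had its highest value at 7 dpi. Every Tet3 array lay above MEF for both genes, and the neuron array lay below. Ifit2 stood at -1.36 in neurons, and at -1.17 in MEF, -0.97 at 1 dpi, -1.34 at 3 dpi, -0.98 at 5 dpi and -1.41 at 7 dpi, a range within 2-fold over all 6 arrays. Ifit3 has a near-identical copy, Ifit3b, whose own probe differed from MEF by 2.17, 2.22, 2.47 and 2.62, so the Ifit3 signal may be shared.

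Isg15, the ubiquitin-like protein that is attached to other proteins, and Usp18, the protease that removes it and also restrains Ifnar2 signalling, had alike courses. Isg15 stood at 0.67 in neurons, and at 1.48 in MEF, 3.96 at 1 dpi, 4.30 at 3 dpi, 4.76 at 5 dpi and 4.19 at 7 dpi. Usp18 stood at -1.69 in neurons, and at -1.36 in MEF, 1.18 at 1 dpi, 1.50 at 3 dpi, 2.13 at 5 dpi and 1.17 at 7 dpi. Both were highest at 5 dpi, 9.78-fold and 11.2-fold above MEF, and both were within 2-fold of MEF in neurons by these probes. The dimmer probe of Isg15 lay 1.63 above MEF in neurons, so its direction there depends on the probe. Herc6, the main ISG15 ligase of the mouse, differed from MEF by 0.41, 0.87, 1.25 and 0.78 and was called at 5 dpi only. Trim25, a ubiquitin ligase that acts on RNA sensing, stood at -0.95 in neurons, and at 1.84 in MEF, 1.94 at 1 dpi, 1.56 at 3 dpi, 1.98 at 5 dpi and 2.01 at 7 dpi: the 5 culture arrays were alike and neurons lay 6.93-fold below MEF.

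The other antiviral effectors held the largest differences. Of 11 with a probe, 6 were higher than MEF at 1 dpi, 7 at 3 dpi, 9 at 5 dpi and 6 at 7 dpi. Of all genes, 5.38%, 16.3%, 17.9% and 17.0% were higher at these times. None of the 11 was lower, against 5.97%, 9.83%, 8.26% and 6.84% of all genes. Median centring left 5, 5, 6 and 3 higher, and the mean over probes gave 7, 7, 10 and 7. Apol9b, of the apolipoprotein L family, stood at -1.60 in neurons, and at -2.60 in MEF, 1.30 at 1 dpi, 1.67 at 3 dpi, 3.06 at 5 dpi and 1.11 at 7 dpi, and was 50.4-fold above MEF at 5 dpi. Ifi44, a cytosolic protein of the antiviral response, stood at -2.65 in neurons, and at -3.75 in MEF, -0.27 at 1 dpi, 0.44 at 3 dpi, 1.12 at 5 dpi and 0.47 at 7 dpi, and was 29.2-fold above MEF at 5 dpi. For both genes each Tet3 array exceeded the neuron array, which itself exceeded MEF. The copy Apol9a has probes of its own, of which the brightest differed from MEF by 2.10, 2.39, 3.61 and 1.92.

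Xaf1, which binds an inhibitor of apoptosis, stood at -1.75 in neurons, and at -0.71 in MEF, 0.75 at 1 dpi, 1.13 at 3 dpi, 1.18 at 5 dpi and 0.77 at 7 dpi by its brighter probe, and its dimmer probe ran the other way in neurons, 3.52 above MEF. Bst2, the tetherin that holds virus particles at the cell surface, stood at 0.06 in neurons, and at 2.74 in MEF, 3.46 at 1 dpi, 4.01 at 3 dpi, 4.29 at 5 dpi and 3.97 at 7 dpi. Neurons lay 6.42-fold below MEF for Bst2, and the Tet3 arrays of 3, 5 and 7 dpi lay above it. Samd9l, a restrictor of translation, differed from MEF by 1.15, 1.58, 1.55 and 1.27 at 1, 3, 5 and 7 dpi and Ifi35 by 1.14, 1.54, 1.46 and 1.09, and both were lower in neurons, with differences of -1.77 and -1.49.

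Rsad2 (viperin), which makes a chain-terminating nucleotide, and its neighbour Cmpk2, a mitochondrial nucleotide kinase, were modest. Rsad2 differed by 1.07, 0.55, 1.40 and 0.55 and Cmpk2 by 0.85, 0.69, 1.09 and 0.90 at 1, 3, 5 and 7 dpi over MEF. Cmpk2 was the gene that stood highest in neurons relative to MEF, 3.89-fold, with levels of -0.22 in neurons, and at -2.18 in MEF, -1.33 at 1 dpi, -1.49 at 3 dpi, -1.09 at 5 dpi and -1.29 at 7 dpi. By its brighter probe Isg20, an RNA exonuclease, passed 2-fold at 3 dpi only (1.24) and was just under it at 7 dpi. Its dimmer probe differed from MEF by 1.28, 1.66, 1.23 and 1.22 at 1, 3, 5 and 7 dpi, so the Isg20 calls depend on the probe. Rtp4 passed 2-fold at 5 dpi only (1.25). Ifi27, a mitochondrial protein, lay above its MEF level except at 3 dpi, with differences of 0.80, -0.41, 0.37 and 0.62.

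**Figure D4:**
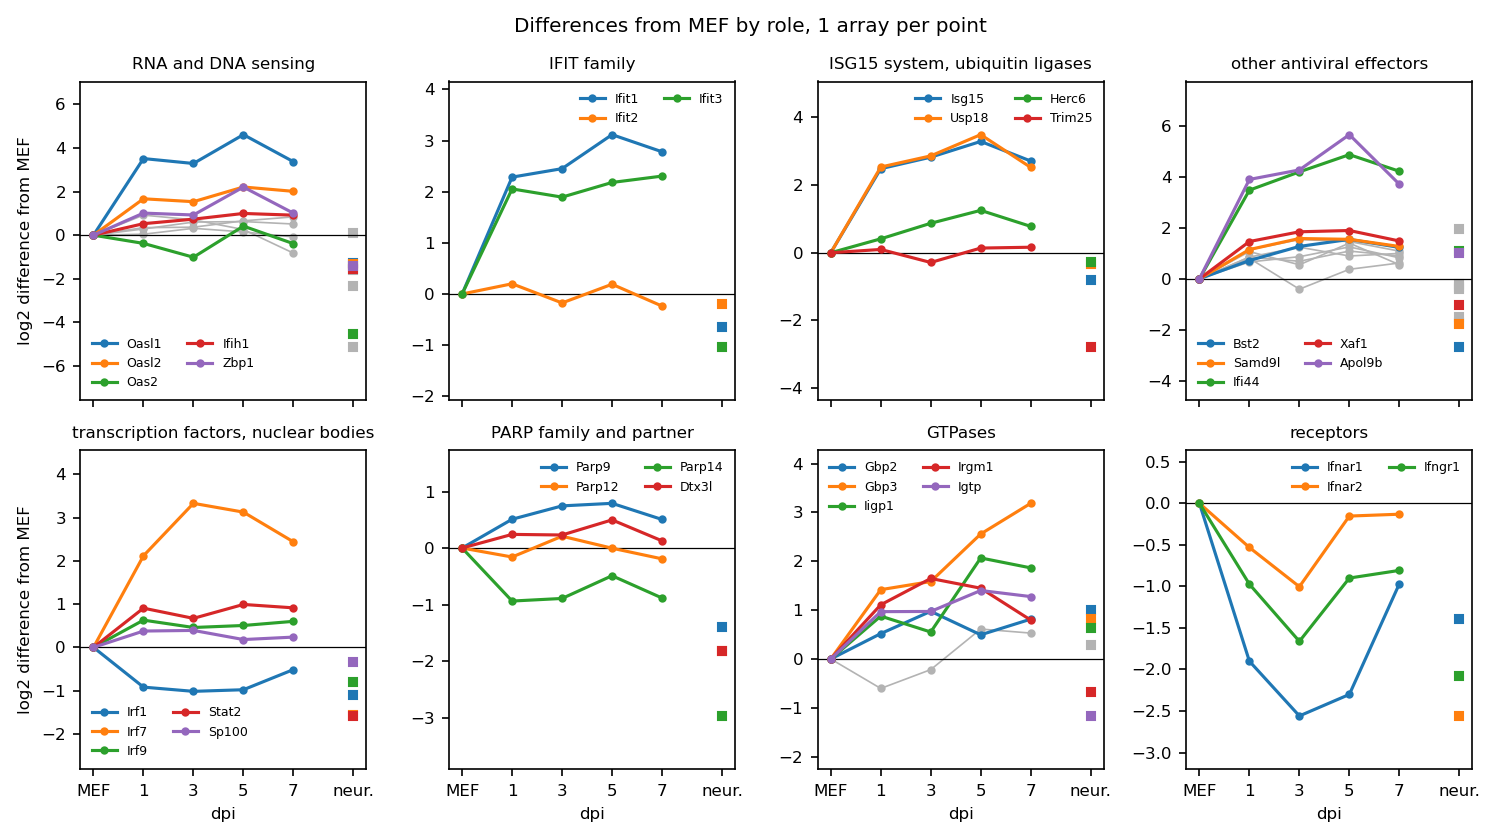
Log2 difference from MEF in 8 panels, 1 for each role, with MEF set to 0, then 1, 3, 5 and 7 dpi joined by lines, and neurons as squares. Up to 5 genes with the largest difference on a Tet3 array are coloured and named in each panel and the others are grey. Most lines leave 0 by 1 dpi and many peak at 5 dpi; the receptor panel lies below 0 at all 4 times.

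Of the transcription factors, Irf7 was high, Stat2 and Irf9 were slightly higher, and the probes of Irf1 disagreed. Irf7, the factor that amplifies interferon alpha transcription, stood at -5.15 in neurons, and at -3.59 in MEF, -1.47 at 1 dpi, -0.26 at 3 dpi, -0.46 at 5 dpi and -1.15 at 7 dpi. It was 10.1-fold above MEF at 3 dpi, its highest array, and 2.94-fold below MEF in neurons. Stat2 lay above MEF by 0.91, 0.67, 0.99 and 0.91 and Irf9 by 0.63, 0.46, 0.51 and 0.60 at 1, 3, 5 and 7 dpi, under 2-fold on each array. After quantile normalization Stat2 was called higher than MEF at 5 and 7 dpi. Sp100, a nuclear body protein, lay above MEF by 0.38, 0.39, 0.18 and 0.24, and at 5 and 7 dpi it lay below MEF after quantile normalization (-0.19 and -0.17). Irf1, which acts early in the interferon gamma response, stood at 1.28 in neurons, and at 2.38 in MEF, 1.46 at 1 dpi, 1.36 at 3 dpi, 1.40 at 5 dpi and 1.86 at 7 dpi: all 4 Tet3 arrays and the neuron array lay below MEF. These values come from the brighter of its 2 probes. The dimmer one differed from MEF by 1.63, -0.03, 0.69 and 0.52 at 1, 3, 5 and 7 dpi, and the mean over both by 0.36, -0.52, -0.14 and 0.00, so the direction for Irf1 depends on the probe.

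Parp9 and its partner Dtx3l form an ADP-ribosyl and ubiquitin ligase pair. With the scaling used, these 2 and Parp12 and Parp14 did not reach 2-fold on any Tet3 array, and all 4 were lower in neurons. Median centring called Parp14 lower than MEF at 1, 3 and 7 dpi. Parp9 differed from MEF by 0.51, 0.75, 0.79 and 0.51 and Dtx3l by 0.24, 0.23, 0.50 and 0.13 at 1, 3, 5 and 7 dpi. Parp12 kept within 0.21 of MEF, its 3 dpi value, on each Tet3 array. Parp14 stood at -0.57 in neurons, and at 2.40 in MEF, 1.46 at 1 dpi, 1.51 at 3 dpi, 1.91 at 5 dpi and 1.52 at 7 dpi, below MEF on each of the others. In neurons it lay 7.84-fold below MEF.

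The interferon-inducible GTPases, which act on the vacuoles of intracellular microbes, number 6 here. Of these, 2 were higher than MEF at 1 dpi, 2 at 3 dpi, 4 at 5 dpi and 3 at 7 dpi, against 5.38%, 16.3%, 17.9% and 17.0% of all genes. Median centring left 3 at 5 dpi and 2 at 7 dpi, without Igtp, and the mean over probes gave 3 at 1 dpi and 3 at 3 dpi, with Iigp1 added. Gbp3 stood at 0.39 in neurons, and at -0.43 in MEF, 0.99 at 1 dpi, 1.16 at 3 dpi, 2.13 at 5 dpi and 2.76 at 7 dpi, with the largest value on the array labelled 7 dpi, 9.11-fold above MEF. Iigp1 (Irga6) stood at -0.49 in neurons, and at -1.13 in MEF, -0.25 at 1 dpi, -0.58 at 3 dpi, 0.94 at 5 dpi and 0.74 at 7 dpi. By this probe Iigp1 was within 2-fold of MEF at 1 and 3 dpi and above it at 5 and 7 dpi. Its dimmer probe differed from MEF by 1.86, 1.54, 3.43 and 3.19 at these times and by -1.98 in neurons, so the call at 1 and 3 dpi and the direction in neurons depend on the probe.

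Irgm1, a regulatory member, stood at 0.53 in neurons, and at 1.21 in MEF, 2.32 at 1 dpi, 2.86 at 3 dpi, 2.66 at 5 dpi and 2.01 at 7 dpi, highest at 3 dpi. Igtp (Irgm3), another regulatory member, stood at -1.09 in neurons, and at 0.07 in MEF, 1.04 at 1 dpi, 1.04 at 3 dpi, 1.47 at 5 dpi and 1.35 at 7 dpi. Its probe was spotted 10 times on each array, and the SD over these spots was 0.036 to 0.073 on the log2 scale, well under the differences of Igtp between MEF and the Tet3 arrays. These spots repeat the array and not the culture. Gbp2 differed from MEF by 0.52, 0.98, 0.49 and 0.82 and Gbp7 by -0.60, -0.22, 0.61 and 0.53, neither reaching 2-fold on a Tet3 array, and Gbp2 was higher in neurons by 1.00.

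The 3 receptor chains lay below MEF on all 4 Tet3 arrays, also under each alternative scaling, while most of the list lay above. Ifnar1, the signalling chain for type I interferon, stood at 0.00 in neurons, and at 1.39 in MEF, -0.51 at 1 dpi, -1.16 at 3 dpi, -0.91 at 5 dpi and 0.43 at 7 dpi by its brightest probe, 5.89-fold below MEF at 3 dpi. Its other 2 probes lay below MEF as well but by less, by 0.38 to 0.69 on the log2 scale at 1, 3 and 5 dpi and by 0.03 and 0.07 at 7 dpi, so the size of the Ifnar1 difference depends on the probe. Ifnar2, the ligand-binding chain, stood at 0.12 in neurons, and at 2.68 in MEF, 2.14 at 1 dpi, 1.67 at 3 dpi, 2.52 at 5 dpi and 2.54 at 7 dpi. Ifngr1, the ligand-binding chain for interferon gamma, stood at 1.01 in neurons, and at 3.09 in MEF, 2.12 at 1 dpi, 1.43 at 3 dpi, 2.19 at 5 dpi and 2.28 at 7 dpi. For all 3 chains MEF was the highest array, and for Ifnar2 and Ifngr1 neurons were the lowest. At 3 dpi 3 of 3 were called lower, with Ifnar2 at the threshold, and after quantile normalization Ifnar2 stood at -0.95 there and was not called. The macrophage markers also were highest in MEF, and their part in the receptor values was not tested.

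Of the ligands upstream, interferon beta was dim. Ifnb1 was well above background on the array labelled 7 dpi only, at a level of -6.05 where the lowest such signal was -6.15. There it was at least 1.46-fold above MEF. Ifng was well above background on the neuron array only. Of 19 interferon genes listed, 10 to 12 gave a value in a comparison with MEF, with 0, 4, 4 and 3 higher at 1, 3, 5 and 7 dpi and none lower. Of all genes, 5.38%, 16.3%, 17.9% and 17.0% were higher at these times, and 5.97%, 9.83%, 8.26% and 6.84% were lower. Ifna14 (0.54, 2.01, 1.99 and 1.44) and Ifnab (0.78, 2.07, 1.31 and 1.60) differed most on the Tet3 arrays among those with a value on all of them. In neurons these 2 also lay above MEF, by 1.77 and 1.86, and Ifna11 by 4.90. There 4 of 12 interferon genes with a value were higher, against 30.2% of all genes, and 0 were lower, against 16.1%. The interferon alpha genes are close copies of one another, so a signal cannot be tied to 1 of them.

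Of 7 further genes that relay interferon signals, Il10rb, Ifnlr1 and, at 7 dpi, Tyk2 reached 2-fold from MEF. At 1, 3, 5 and 7 dpi 1, 1, 0 and 1 of the 7 were higher, against 5.38%, 16.3%, 17.9% and 17.0% of all genes. Lower were 1, 1, 1 and 2 of them, against 5.97%, 9.83%, 8.26% and 6.84%. Jak1 stayed at 2.23 in neurons, and at 2.66 in MEF, 2.55 at 1 dpi, 2.52 at 3 dpi, 2.75 at 5 dpi and 2.55 at 7 dpi. Tyk2 differed from MEF by -0.50, -0.14, -0.70 and -1.04 at 1, 3, 5 and 7 dpi. Il10rb, a receptor chain shared by interferon lambda, differed by -1.35, -2.04, -1.91 and -1.52, and Ifnlr1, its partner, was dim and differed by 1.53, 1.28, 0.97 and 1.28.

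Of 18 sensors and adaptors that act upstream of interferon, 0, 1, 0 and 0 were higher than MEF at 1, 3, 5 and 7 dpi. Of all genes, 5.38%, 16.3%, 17.9% and 17.0% were higher at these times. Lower than MEF were 4, 4, 5 and 4 of the 18, against 5.97%, 9.83%, 8.26% and 6.84% of all genes. The higher one was Ddx58 (RIG-I), the sensor of RNA ends, at 1.12 on the 3 dpi array. Tlr4, Tlr7, Irf5 and Aim2 were lower on each Tet3 array. Tlr7 differed by -1.84, -2.19, -2.96 and -2.79 and Irf5 by -1.35, -2.09, -2.79 and -4.36 at 1, 3, 5 and 7 dpi. Ifi204 (0.03, -0.20, 0.49 and 0.32) and Tlr9 (-0.26, -0.40, -0.32 and -0.12) stayed within 2-fold of MEF, as did Myd88. Macrophage markers were lower on these arrays too, and their part in these values was not tested. The adaptor Mavs was lower at 5 dpi (-1.04), while Sting1, Tbk1, Irf3 and Cgas stayed within 2-fold on all 4 arrays.

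Of 9 brakes on interferon signalling, 1, 0, 1 and 0 were higher than MEF at 1, 3, 5 and 7 dpi, and 2 were lower each time. The shares of all genes were 5.38%, 16.3%, 17.9% and 17.0% higher and 5.97%, 9.83%, 8.26% and 6.84% lower. Trim24 was higher than MEF at 1 dpi (1.14) and at 5 dpi, and within 2-fold of it at 3 and 7 dpi (0.44 and 0.65). Socs1, which blocks the receptor kinases, stayed within 2-fold (-0.24, -0.21, 0.27 and 0.34). Socs3 was lower at 1 and 3 dpi (-1.03, -1.49, -0.38 and -0.53). The phosphatase Ptpn6, a gene of blood cells, was lower on all 4 arrays (-2.00, -2.09, -5.39 and -6.34). The macrophage markers were lower there too, and their part in the Ptpn6 values was not tested. Ptpn1 was lower at 5 and 7 dpi, with differences of -1.09 and -1.10.

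**Figure D5:**
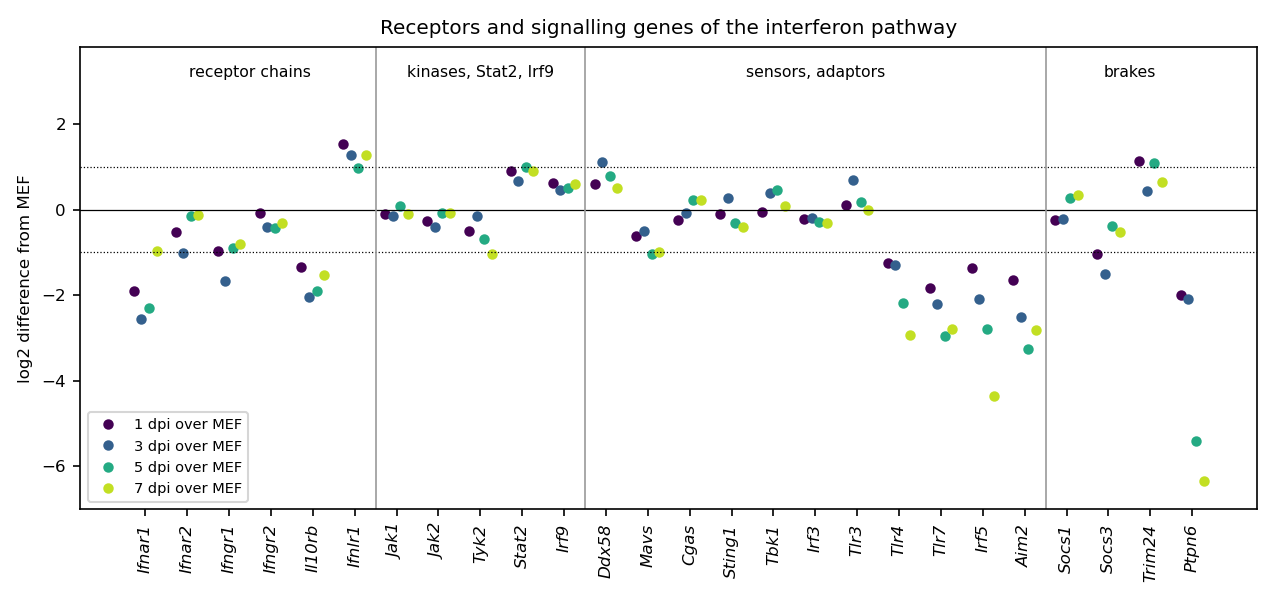
Log2 difference from MEF of receptor, kinase, sensor and brake genes, with 1 point for each Tet3 array, from dark (1 dpi) to light (7 dpi), and dotted lines at 2-fold. Jak1, Jak2, Tbk1 and Irf3 lie near 0, and Ifnlr1 lies above it. The receptors Ifnar1, Ifngr1 and Il10rb lie below 0, as do Tlr4, Tlr7, Irf5, Aim2 and Ptpn6.

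Among 37 further interferon-responsive genes with a probe, 6, 10, 11 and 12 were higher than MEF at 1, 3, 5 and 7 dpi and 2, 4, 3 and 4 were lower. The higher ones made up 16.2%, 27.0%, 29.7% and 32.4% of them, against 5.38%, 16.3%, 17.9% and 17.0% of all genes. The lower ones made up 5.41%, 10.8%, 8.11% and 10.8%, against 5.97%, 9.83%, 8.26% and 6.84%. The chemokine Cxcl10 stood at 0.92 in neurons, and at -3.33 in MEF, -0.21 at 1 dpi, 0.48 at 3 dpi, 1.50 at 5 dpi and 1.25 at 7 dpi, and in contrast to most of the list its neuron level was near those of the later Tet3 arrays. Tap1, the peptide transporter of antigen presentation, differed by 1.47, 1.67, 1.68 and 1.50 and Gbp4 by 1.04, -0.17, 2.11 and 3.00. Cxcl9 was near background in MEF, and its signal was at least 5.23 higher on the log2 scale at 3 dpi and at least 1.87 at 5 dpi. Irf8, a factor of macrophages and their precursors, differed by -2.29 at 1 dpi and -6.49 at 7 dpi and Slfn2 by -0.70 and -2.15. Macrophage markers were lower at these times too, and their part in these 2 genes was not tested.

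The steps from one time to the next had smaller medians than 1 dpi over MEF: 0.05, 0.37 and -0.23 for 3 over 1, 5 over 3 and 7 over 5 dpi. At 3 dpi over 1 dpi, which crosses scans, Irf7 was higher and Ifi27 was lower, so 1 of 45 was called in each direction, against 7.73% and 5.13% of all genes. After median centring no gene was higher in this step. At 5 dpi over 3 dpi, within a scan, 5 were higher, against 8.11% of all genes, and 0 were lower, against 4.54%. These were Iigp1 (2.86-fold), Oas2 (2.69-fold), Apol9b (2.61-fold), Oasl1 (2.50-fold) and Zbp1 (2.43-fold). At 7 dpi over 5 dpi, also within a scan, 4 were lower, against 4.71%: Apol9b (3.85-fold), Oasl1 (2.36-fold), Zbp1 (2.29-fold) and Oas3 (2.12-fold). Ifnar1 alone was higher in that step, against 5.88%, and with the mean over its probes it was not. Of the 4 Tet3 arrays, that of 5 dpi was the highest for 24 of 45 genes, against 22.1% of all genes. That of 1 dpi was highest for 4, against 20.1%, that of 3 dpi for 9, against 29.4%, and that of 7 dpi for 8, against 28.4%.

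The largest median difference among the 9 comparisons was that between the array labelled 7 dpi and the neuron array, read in the same scan. At 7 dpi over neurons 35 of 45 were higher, against 13.9% of all genes, and 1 was lower, against 19.6%. The median difference was 2.44, against -0.05 for all genes, whose share of calls that were higher was 41.5% as used and 60.4% after median centring. Oas1a was 33.4-fold higher at 7 dpi than in neurons, Oasl1 24.9-fold, Oas2 17.7-fold and Bst2 15.1-fold. Cmpk2 was the gene called lower, 2.09-fold, and Gbp2, Ifit2, Gbp7, Ifnar1, Sp100, Irf1, Rsad2, Ifi27 and Oas3 were within 2-fold. Macrophage markers were low on both arrays against MEF, with summed signals of 3.46 at 7 dpi and 4.69 in neurons, but they were not level. At 7 dpi over neurons 7 of 14 were lower, against 19.6% of all genes, and 0 were higher, against 13.9%, with a median of -0.92. Fibroblast markers had summed signals of 610.1 at 7 dpi and 102 in neurons. The part of both marker sets in these differences was not tested.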

How the data were processed

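RNA of 6 samples was measured on 1 single-colour (Cy3) Agilent mouse array each. Per the submitters' processing notes, Agilent Feature Extraction 11.0.1.1 read the scans. Per the file headers, the intensity column used is the processed signal, from which the software had subtracted background. The authors' deposited series table holds log2 values. Each of its columns correlated at r of 0.99998 or more with the values computed here over all probes and lay within 0.0051 of them for the 45 genes, which fixes its scale and its 75th percentile at 0; the sources used here do not name the software step behind it. Its column medians were -2.503 for neurons, and -3.303, -3.234, -3.003, -2.899 and -2.864 for MEF, 1, 3, 5 and 7 dpi.

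Spots of a probe were averaged in log2 without those marked as outliers, and the 75th percentile over probes was subtracted (a signal of 1750.0 in neurons, and 2129.3, 1894.5, 2415.4, 1648.2 and 1810.4 in MEF, 1, 3, 5 and 7 dpi). No spot was saturated, and 72.87% to 86.08% of probes were well above background. Accessions gave 27228 of 39429 probes a symbol through RefSeq (GRCm38.p6), and the other 12201 were not used by name. The brightest probe stood for a gene; 14 of the 45 genes have several. With both arrays well above background a difference counted as measured, with 1 of them as a bound, and with neither it was left out. Calls were made at 2-fold, in Python 3.11.15 with pandas 2.3.3, and the calling was tested on simulated data. There is no test between groups with 1 array each.

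The genes and all lists were chosen with earlier results of these data known. Any of the 47 genes and of the lists could be named. All 6 levels were given for up to 4 genes of a role with the largest difference from MEF and for the receptors. For some other genes, levels were given after their values were seen. Alternatives were normexp background correction (offset 50) and quantile normalization with limma 3.58.1, median centring, requiring both arrays above background, the mean over probes and the authors' table. Leaving out the array labelled 7 dpi, or Apol9b and Ifit3, was added after the data were seen. A gene of the signalling list is not reported here.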

Additional observations from a re-analysis of the deposited data

Results flagged for a closer look

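For 10 of the 45 genes the array labelled 7 dpi lay at least 2-fold above MEF while the neuron array lay at least 2-fold below it, a pattern found in 0.799% of all genes. The values that follow are log2 differences from MEF, at 7 dpi first and in neurons second, and the difference between them was not tested, since each group is 1 array. Oasl1 stood at 3.37 and -1.26, Irf7 at 2.44 and -1.56, Ifit3 at 2.30 and -1.04, and Oasl2 at 2.01 and -1.33. Xaf1 stood at 1.48 and -1.04, Igtp at 1.28 and -1.17, Samd9l at 1.27 and -1.77, and Bst2 at 1.23 and -2.68. Ifi35 at 1.09 and -1.49 and Zbp1 at 1.01 and -1.43 lay close to the threshold at 7 dpi. Median centring gave 8 such genes: Oasl1, Irf7, Ifit3, Oasl2 and Xaf1 of these, with Ifit1, Isg15 and Usp18 added. Normexp background correction gave 5 (Ifit3, Oasl2, Igtp, Samd9l and Bst2), quantile normalization 9, and the mean over probes 9, without Xaf1, whose dimmer probe lay above MEF in neurons. MEF and the other arrays compared were read in different scans, and the 2 differences of a gene share the MEF array.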

How the results depend on the processing

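No paired analysis was possible because each group is 1 array, and for the same reason no replicate could be left out. Of the 71 higher calls over MEF at 1 to 7 dpi and in 45 genes, 67 remained with normexp background correction, 67 after quantile normalization, 57 after median centring, and all 71 with both arrays above background, the mean over probes or the authors' table. Normexp gave 2 lower genes at 1 dpi and 2 at 5 dpi over MEF, 1 higher gene in neurons over MEF, and for 7 dpi over neurons 0 lower genes and a median of 2.23. Quantile normalization gave 2 lower genes at 3 dpi and 1 at 7 dpi. Median centring, which subtracts 1 amount from every gene of an array, gave 3, 6, 3 and 4 lower genes at 1, 3, 5 and 7 dpi. Its medians were 0.44, 0.59 and 0.39 at 3, 5 and 7 dpi over MEF, -1.97 for neurons over MEF with 1 higher gene, -0.18 for 3 dpi over 1 dpi with 0 higher genes, and 2.80 for 7 dpi over neurons with 0 lower genes. The mean over probes gave 0 higher genes at 7 dpi over 5 dpi and 0 lower genes at 7 dpi over neurons. It also turned Xaf1 in neurons to 1.24 above MEF, since the dimmer of its 2 probes runs the other way there. The causes of the other changes were not tested. Without Apol9b and Ifit3, which have near-identical copies, 14, 14, 20 and 15 genes were higher at 1, 3, 5 and 7 dpi. Within 0.1 of the threshold lay 8, 6, 4 and 6 genes at 1, 3, 5 and 7 dpi over MEF.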
